A study of Mus musculus with 12 samples.

Results

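The E2F family and the Rb-like pocket proteins were followed across RNA-seq libraries of RTF2-deficient and wild type mouse embryonic fibroblasts (MEFs). The 10 members are E2f1 to E2f8, Rbl1 and Rbl2, chosen by gene name, among 24100 genes in the count table. RTF2 is a protein of the replisome, the machinery that copies DNA. WT cells were Rtf2+/+ and RTF2-deficient cells were Rtf2-/lox, and both received Cre recombinase from the Hit & Run pMMP retrovirus 72 hrs before RNA extraction, so all groups carried the virus and Cre. The fibroblasts came from mid-gestation embryos, had been immortalized with SV40 large T antigen, and formed 2 lines of littermates from different mothers, each with 3 libraries per genotype, 12 in all. The libraries of a group were technical replicates, so p-values measure only the spread between these libraries. Deletion acted on cell populations rather than on clones.

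E2F proteins bind DNA at the promoters of genes needed for S phase. E2F1, E2F2 and E2F3 activate transcription and are restrained by the retinoblastoma protein, whereas E2F4 and E2F5 mostly repress and work with the related pocket proteins p107 (Rbl1) and p130 (Rbl2). E2F6 lacks the region that binds pocket proteins and recruits a Polycomb complex, and E2F7 and E2F8 repress E2F targets without a DP partner. Large T antigen binds all pocket proteins and frees E2F from them. Its activity in these cells was not measured here.

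Rtf2 itself was measured at 44.9, 44.8 and 47.2 CPM (counts scaled to the library total, with TMM factors) in WT line 1 and at 57.7, 52.9 and 50.9 CPM in WT line 2. It stood at 5.63, 5.44 and 6.29 CPM in RTF2-deficient line 1 and at 6.66, 6.49 and 6.33 CPM in RTF2-deficient line 2, a log2 fold change of -3.01 (SE 0.06, edgeR quasi-likelihood test with Benjamini-Hochberg adjustment, adjusted p = 2.45e-11). Library totals ran from 39360167 to 44695002 counts. The 9 fibroblast markers summed to between 13288 and 21125 CPM, while the epithelial, endothelial, haematopoietic, skeletal muscle and adipocyte lists each stayed at or below 21.5 CPM in every library. Of the single markers, Krt18 (epithelial, log2 fold change 0.74, adjusted p = 0.0381) and Kdr (endothelial, 0.58, adjusted p = 0.0492) rose over both lines. Each call was lost in 9 of the 12 fits that left out a library, with the replicate block and without the 3 interferon-high libraries described below. Within line 2, 1 haematopoietic and 1 adipocyte marker were called lower (7.03% of all genes lower). The skeletal muscle list there summed to 6.34 to 9.40 CPM in WT and 12.6 to 18.3 CPM in RTF2-deficient libraries. The adipocyte list there summed to 7.01 to 12.7 and 3.57 to 5.75 CPM. In line 1 the genotypes overlapped for both lists. The part of these marker differences in the results was not tested. The WT libraries of line 2 stood apart from all others in sex-linked genes, with Xist between 0.0217 and 0.132 CPM and Ddx3y between 91.8 and 106.7 CPM, whereas Xist was at least 102.9 CPM and Ddx3y at most 0.195 CPM in the other 3 groups. Whether these 3 libraries came from an embryo of the other sex or carry a wrong label was not tested. The line 2 comparisons follow the labels as given, and within them genotype cannot be told apart from this difference. In 3 libraries, WT line 2 replicates 1 and 3 and RTF2-deficient line 2 replicate 3, the 12 interferon-stimulated genes summed to between 1788 and 6282 CPM, against 60.4 to 592.7 CPM in the other 9, and results are also given without these 3 libraries.

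Promoter sequences from RefSeq (GRCm38.p6) were available for 8 of the 10 members and are shown where they hold an E2F site, because E2F genes are themselves targets of E2F proteins. Each window spans 250 bases before and 50 bases after the start of the gene and was searched on both strands for the E2F words TTTCCCGC, TTTCGCGC, TTTGCCGC and TTTGGCGC. At least 1 of the 4 words lay in 2.26% of all 32851 windows and in those of 4 members. The members that rose, E2f3 and E2f7, both held TTTCCCGC on the strand opposite to the gene, printed here as its reverse complement in capitals, in the 250 bases before the start. For E2f3 these bases are chr13:29986064-29986313 (minus strand, read 5′ to 3′ toward the gene) and for E2f7 chr10:110745189-110745438 (plus strand).
E2f3: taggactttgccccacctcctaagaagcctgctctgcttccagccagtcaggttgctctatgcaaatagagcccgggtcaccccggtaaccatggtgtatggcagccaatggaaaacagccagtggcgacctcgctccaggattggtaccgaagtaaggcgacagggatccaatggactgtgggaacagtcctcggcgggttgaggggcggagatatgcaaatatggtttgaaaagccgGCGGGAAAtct
E2f7: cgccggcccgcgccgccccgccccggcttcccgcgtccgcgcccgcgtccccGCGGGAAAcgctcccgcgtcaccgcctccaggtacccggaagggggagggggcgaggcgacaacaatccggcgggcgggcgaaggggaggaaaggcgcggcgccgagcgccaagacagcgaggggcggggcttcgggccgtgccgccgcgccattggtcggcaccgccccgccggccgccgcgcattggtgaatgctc
The word of E2f3 ended 4 bases before the start, and that of E2f7 began 198 bases before it. Rbl1 held TTTCGCGC in its own direction from 18 to 11 bases before the start, and E2f2 held TTTGGCGC from base 40 to base 47 after its RefSeq start. That start and the word both lie upstream of E2f2 as GENCODE M21 draws it. The sequences around the words of Rbl1 and E2f2 are shown for comparison, at chr2:157204534-157204563 (minus strand) and chr4:136172302-136172323 (plus strand).
Rbl1: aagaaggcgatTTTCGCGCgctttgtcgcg
E2f2: gcggcatatagTTTGGCGCtaa
No E2F word was found in the windows of E2f1, E2f6, E2f8 and Rbl2. The window of E2f1 lies inside the gene as GENCODE M21 draws it. The CHR word TTTGAA, which does not overlap any of the E2F words in these windows, was present in windows of E2f2, E2f3, E2f8 and Rbl2 and in 17.9% of all windows. Of the genes with a window, an E2F word was found for 21 of 45 G1/S genes (46.7%), for 1 of 25 G2/M genes (4%) and for 2.60% of all genes. A match is a description of letters and was not tested for binding.

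Whether loss of RTF2 changes the expression of these genes was asked first over both lines. E2f1 fell, and E2f3 and E2f7 rose, each by less than the factor that a log2 change of 1 stands for. The other 7 members did not pass the test. The members called were 3 of 10, beside 13.2% of all 14263 genes tested in edgeR's quasi-likelihood test at a Benjamini-Hochberg adjusted p under 0.05. In the lower direction 1 of 10 was called, beside 8.18% of all genes, and in the higher direction 2 of 10, beside 4.98%. With a log2 fold change beyond 1 also required, 0 members and 1.72% of all genes were called by edgeR; 3 members had an unadjusted p under 0.05 (28.5% of all genes) and DESeq2 also put 0 beyond that fold. The median log2 fold change of the members was -0.11, beside 0.00 for all genes, and the median size of the change was 0.15 for the members and 0.15 for all genes. With the 3 libraries of each group summed, so that a line was the unit, 0 members and 0 of the 14263 genes passed in edgeR, with 2737 genes at an unadjusted p under 0.05, and E2f1, E2f3 and E2f7 kept log2 fold changes of -0.30, 0.21 and 0.31.

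**Figure D1:**
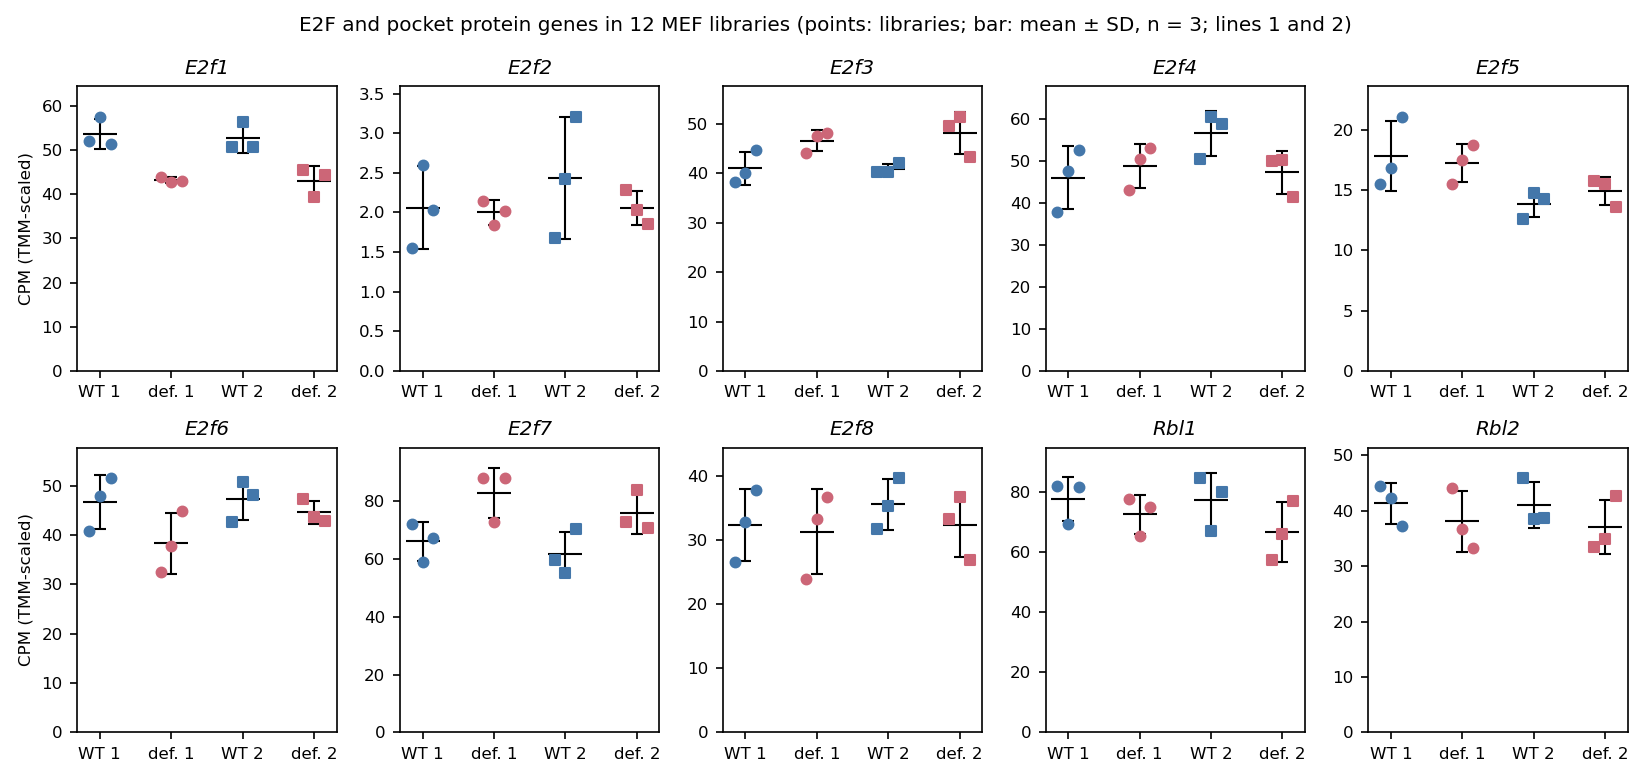
Normalized level (CPM, linear axis from 0) of each member in the 12 libraries, in WT and RTF2-deficient (def.) cells of lines 1 and 2, with the mean ± SD of the 3 libraries of a group. The E2f1 values of all 6 RTF2-deficient libraries lie below 50.7 CPM, the lowest WT value, while the groups overlap for the other 9 members.

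E2f1, an activator of the family, lies on chr2:154559407-154569892 (GRCm38, minus strand, 7 exonic blocks). It was measured at 52.1, 57.6 and 51.5 CPM in WT line 1 and at 50.8, 56.5 and 50.7 CPM in WT line 2. In the RTF2-deficient cells it stood at 44.0, 42.9 and 43.0 CPM in line 1 and at 45.6, 39.3 and 44.5 CPM in line 2. All 6 RTF2-deficient libraries were below all 6 WT libraries, a separation that 4.41% of all genes tested also showed in that direction. The level was 0.812 times that of WT (95% confidence interval 0.750 to 0.880), a log2 fold change of -0.30 (SE 0.05, adjusted p = 0.00314). Leaving out any one library kept the call, with log2 fold changes between -0.32 and -0.27.

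E2f3, an activator whose long and short proteins arise from separate promoters that gene counts do not distinguish, lies on chr13:29906575-29986063 (minus strand, 9 exonic blocks). WT line 1 gave 38.3, 40.1 and 44.7 CPM and WT line 2 gave 40.3, 40.4 and 42.1 CPM. RTF2-deficient line 1 gave 44.2, 47.5 and 48.1 CPM and RTF2-deficient line 2 gave 49.6, 51.5 and 43.4 CPM. The highest WT library, replicate 3 of line 1, lay above the lowest libraries of both RTF2-deficient groups, so the genotypes overlapped. The level was 1.16 times that of WT (95% confidence interval 1.06 to 1.26), a log2 fold change of 0.21 (SE 0.06, adjusted p = 0.0318). The call was lost in 8 of the 12 fits that left out a library, with adjusted p up to 0.0883, and without the 3 libraries high in interferon-stimulated genes (0.23, adjusted p = 0.0590).

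E2f2, the remaining activator (chr4:136172394-136196057, plus strand), was the least abundant member, with 65 to 136 counts per library. Its level ran from 1.55 to 3.21 CPM in WT and from 1.84 to 2.29 CPM in RTF2-deficient libraries, the latter lying wholly inside the WT range. The ratio to WT was 0.906 with an interval of 0.695 to 1.18 (log2 fold change -0.14, SE 0.18, adjusted p = 0.628). This interval includes a fall of the size seen for E2f1.

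E2f7, an atypical repressor that acts on E2F targets including E2f1, lies on chr10:110745439-110787384 (plus strand, 15 exonic blocks). It was measured at 72.0, 58.9 and 67.5 CPM in WT line 1 and at 59.8, 55.4 and 70.3 CPM in WT line 2. RTF2-deficient libraries gave 88.1, 73.0 and 88.0 CPM in line 1 and 72.9, 83.9 and 70.8 CPM in line 2. Of the 6 RTF2-deficient libraries, only replicate 3 of line 2 fell below the highest WT library. The level was 1.24 times that of WT (95% confidence interval 1.10 to 1.40), a log2 fold change of 0.31 (SE 0.08, adjusted p = 0.0245). The call was lost in 4 of the 12 fits that left out a library, with adjusted p up to 0.0636, namely without replicate 2 of either WT line, replicate 3 of RTF2-deficient line 1 and replicate 2 of RTF2-deficient line 2. It was kept without the 3 libraries high in interferon-stimulated genes (0.38, adjusted p = 0.0319), as was that of E2f1 (-0.34, adjusted p = 0.0115). An antisense transcript in the count table, 1700020G17Rik, shares 86 exonic bases with E2f7, and whether the counting used strand is not given in the sources used here.

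E2f8, the other atypical repressor (chr7:48866429-48881596, minus strand), ranged from 26.6 to 39.8 CPM in WT and from 24.0 to 36.8 CPM in RTF2-deficient libraries. These ranges overlapped over most of their width. Its ratio to WT was 0.937 (95% confidence interval 0.778 to 1.13; log2 fold change -0.09, adjusted p = 0.652), and whether it differed from E2f7 in its response was not tested.

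**Figure D2:**
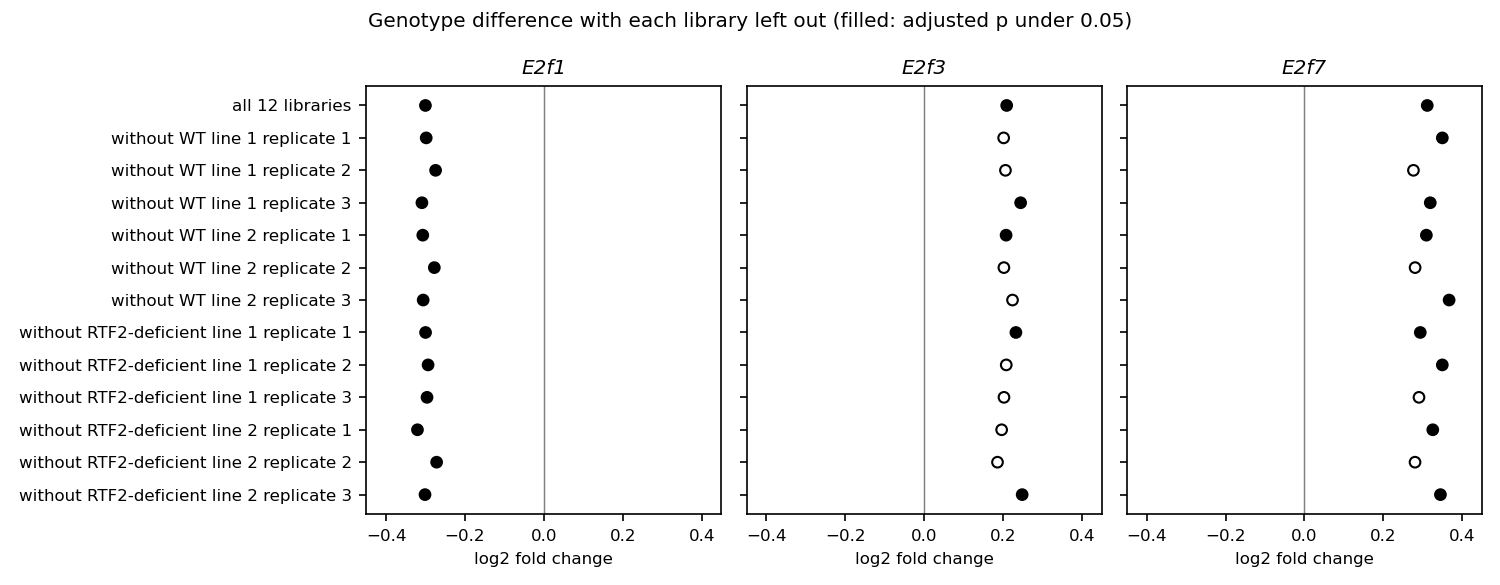
Log2 fold change of E2f1, E2f3 and E2f7 between genotypes over both lines with all 12 libraries and with each library left out. Filled points have an adjusted p under 0.05 and open points do not: all 12 fits without a library are filled for E2f1, 4 for E2f3 and 8 for E2f7, and no value crosses 0.

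The repressors that pair with pocket proteins did not pass the test. E2f4, a broadly expressed E2F (chr8:105297663-105305370, plus strand), ran from 38.0 to 60.6 CPM in WT and from 41.5 to 53.2 CPM in RTF2-deficient libraries, with a log2 fold change of -0.09 (SE 0.10, adjusted p = 0.613). E2f5, its closest relative (chr3:14578641-14606309, plus strand), ran from 12.6 to 21.1 CPM in WT and from 13.6 to 18.7 CPM in RTF2-deficient libraries, with a log2 fold change of 0.03 (SE 0.09, adjusted p = 0.864). For both genes the RTF2-deficient libraries lay inside the WT range. The intervals of the ratio were 0.804 to 1.10 for E2f4 and 0.892 to 1.17 for E2f5.

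E2f6, the repressor that works with Polycomb proteins (chr12:16810963-16839742, plus strand), was measured at 40.8, 48.0 and 51.6 CPM in WT line 1 and at 42.7, 50.9 and 48.2 CPM in WT line 2. RTF2-deficient line 1 gave 32.5, 37.9 and 44.8 CPM and RTF2-deficient line 2 gave 47.3, 43.7 and 42.8 CPM. The 2 lowest values of all were in RTF2-deficient line 1, while line 2 lay inside the WT range. Over both lines the log2 fold change was -0.18 (SE 0.09, adjusted p = 0.200), which did not pass.

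The pocket proteins encoded by Rbl1 and Rbl2 work with the repressors E2F4 and E2F5. Rbl1 (chr2:157145893-157204534, minus strand) ranged from 66.9 to 84.6 CPM in WT and from 57.2 to 77.5 CPM in RTF2-deficient libraries, and Rbl2 (chr8:91070057-91123844, plus strand) from 37.2 to 45.9 and from 33.4 to 44.1 CPM. The ranges of the genotypes overlapped for both genes. The log2 fold changes of -0.15 (SE 0.09, adjusted p = 0.270) for Rbl1 and -0.13 (SE 0.09, adjusted p = 0.346) for Rbl2 did not pass the test. Rbl2 shares 693 exonic bases with Aktip on the opposite strand, and reads of the shared bases could have been counted for either gene.

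**Figure D3:**
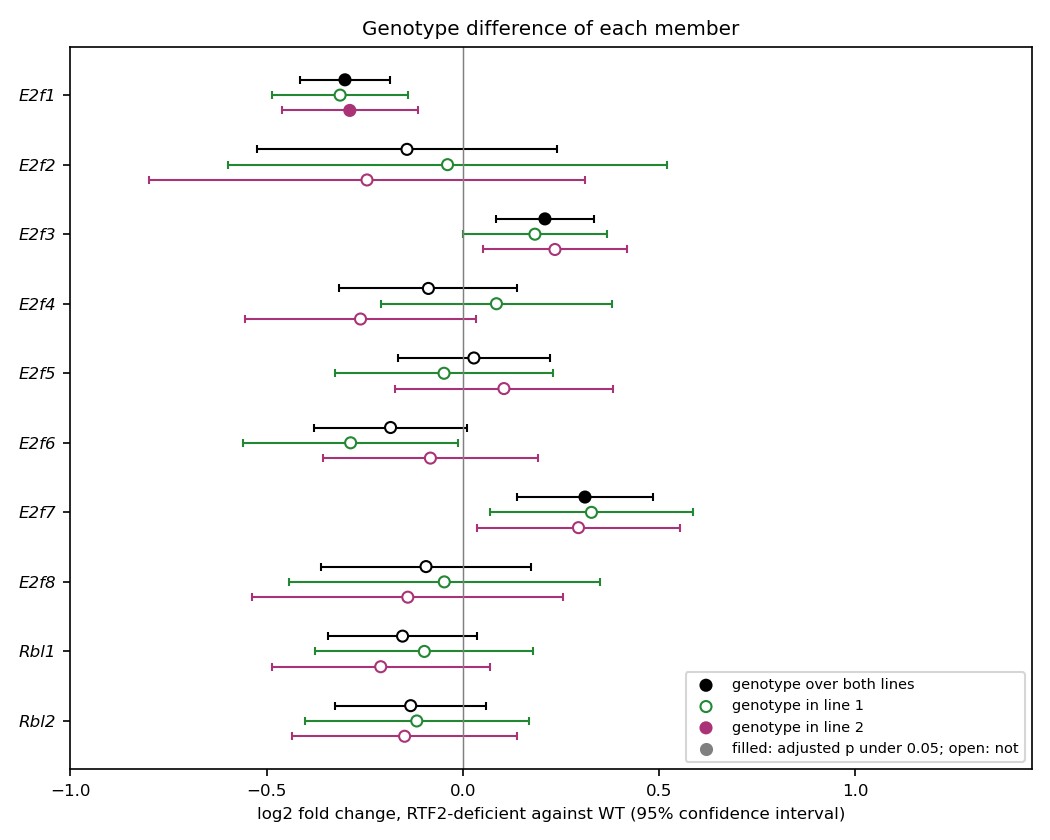
Log2 fold change of each member, RTF2-deficient against WT, over both lines and within each line, with its 95% confidence interval. Filled points have an adjusted p under 0.05: E2f1, E2f3 and E2f7 over both lines, E2f1 in line 2, and no member in line 1 without the replicate block.

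Each line was then examined on its own, since they came from different mothers. In line 1, 0 of 10 members were called by edgeR, beside 3.20% of all genes, with 3 members at an unadjusted p under 0.05 (13.9% of all genes) and 1 called by DESeq2 (6.04% of all genes). Libraries of line 1 with the same replicate number deviated together from their group means, so the comparison was also fitted in line 1 alone with the replicate number as a block. In that fit, added after seeing the data, 4 of 10 members were called, beside 29.1% of the 13685 genes tested. E2f1 (log2 fold change -0.31, adjusted p = 0.00180) and E2f6 (-0.29, adjusted p = 0.00234) fell, and E2f3 (0.18, adjusted p = 0.0131) and E2f7 (0.33, adjusted p = 0.000604) rose. All 3 same-numbered pairs moved one way for these 4 genes and also for E2f4, Rbl1 and Rbl2, which did not pass. The share of all genes with such pairs was not computed, so the count is a description only. For E2f6 the highest RTF2-deficient library of line 1 exceeded the lowest WT library but not its own partner.

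In line 2, 1 of 10 members was called, beside 12.5% of all genes. This was E2f1, with a log2 fold change of -0.29 (SE 0.08, adjusted p = 0.0356). E2f3 (0.23, adjusted p = 0.0935) and E2f7 (0.29, adjusted p = 0.130) had positive values there that did not pass. The E2f1 call was lost with the replicate block, without the filter and in line 2 fitted alone. It was also lost in 11 of the 12 fits that left out a library, with adjusted p between 0.0514 and 0.172, in all but the fit without WT line 1 replicate 2. Without the 3 libraries high in interferon-stimulated genes E2f1 stood at -0.40, E2f3 at 0.33 and E2f7 at 0.51 in line 2. These values rest on 1 WT library, assumed to vary like the other groups, so no test result is given for them.

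No difference between the lines in the response to RTF2 loss was detected for a member. The interaction of genotype and line was called for 0 of 10 members by edgeR, beside 1.29% of all genes, with 0 at an unadjusted p under 0.05 (8.49% of all genes) and 0 by DESeq2 (2.87%). Its largest size was at E2f4, with -0.35 (95% confidence interval -0.76 to 0.07, adjusted p = 0.725): WT line 2 averaged 56.7 CPM ± 5.38 (SD, n = 3) and the other groups between 46.1 and 48.9 CPM. For E2f1, E2f3 and E2f7 the interaction was 0.02, 0.05 and -0.03, and the widest of their intervals ran from -0.40 to 0.33.

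The lines themselves were also compared within each genotype. Between the WT lines 0 of 10 were called by edgeR, beside 14.0% of all genes, with 2 at an unadjusted p under 0.05 (28.1% of all genes) and 1 by DESeq2 (19.3% of all genes). That gene was E2f5, which averaged 17.8 CPM ± 2.91 in WT line 1 and 13.9 CPM ± 1.13 in WT line 2 (SD, n = 3), a log2 fold change of -0.36 (edgeR adjusted p = 0.0840). With the WT libraries alone and a replicate block the count was again 0 of 10, beside 17.6% of the genes tested. Between the RTF2-deficient lines 0 of 10 were called by edgeR, beside 1.94% of all genes, with 0 at an unadjusted p under 0.05 (13.4% of all genes) and 0 by DESeq2 (4.92%). The largest size was 0.22 at E2f6, which ran from 0.10 to 0.34 with each library left out in turn. The median size of the log2 difference between WT lines was 0.06 for the members and 0.18 for all genes.

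The partners of the family gave no call over both lines. Tfdp1 and Tfdp2 encode the DP proteins with which E2F1 to E2F6 bind DNA, and Rb1 encodes the retinoblastoma protein. Their log2 fold changes were -0.14, 0.00 and 0.10, with adjusted p of 0.155, 0.982 and 0.524, and 1 of the 3 had an unadjusted p under 0.05. The MuvB core, without its partners B-MYB and FOXM1, forms the DREAM repressor complex with p130 and E2F4. Of the 7 genes of this core and these partners, 0 were called by edgeR, 0 by DESeq2 and 0 had an unadjusted p under 0.05. Mybl2 stood at -0.16 (adjusted p = 0.391) and Foxm1 at 0.11 (adjusted p = 0.539). In line 1 alone with the replicate block, Tfdp1 (-0.11, adjusted p = 0.0302) and Mybl2 (-0.23, adjusted p = 0.0108) fell.

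Lists of genes that the family is known to control were examined next. Of 58 genes of the G1/S program with known E2F sites, 10 fell and 0 rose. This was 17.2% lower, beside 8.18% of all genes lower and 13.2% of all genes called in either direction. An unadjusted p under 0.05 was reached by 19 of the 58, beside 28.5% of all genes. The median log2 fold change of the list was -0.08, beside 0.00 for all genes. The 4 largest falls among the genes called were those of Gins2, a subunit of the replicative helicase (-0.49, SE 0.06, adjusted p = 0.000235), Pold1, the catalytic subunit of DNA polymerase delta (-0.45, adjusted p = 0.000224), Pole, that of polymerase epsilon (-0.40, adjusted p = 0.00518), and Dscc1, a subunit of a clamp loader (-0.37, adjusted p = 0.0104). For Gins2 the WT libraries ran from 41.8 to 52.0 CPM and the RTF2-deficient libraries from 30.2 to 35.3 CPM, and for Pold1 from 72.9 to 83.4 and from 52.2 to 60.8 CPM, without overlap. Others that fell included Mcm7, Pola2, Pola1, Lig1 and Slbp, with log2 fold changes from -0.29 to -0.17, and the calls of Lig1 and Slbp were lost in 8 and 10 of the 12 fits that left out a library. In bulk RNA, fewer cells in S phase and less RNA per cell cannot be told apart.

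The G1/S count was 10 without the 3 libraries high in interferon-stimulated genes and lay between 8 and 12 with any one library left out. Within the lines it was 2 lower and 0 higher in line 1, beside 2.52% of all genes lower, and 6 lower and 0 higher in line 2, beside 7.03%, which are near the shares over all genes. In line 1 alone with the replicate block it was 21 lower and 2 higher, beside 14.7% of all genes lower and 14.4% higher. Without the 3 interferon-high libraries, which leaves 1 WT library in line 2, that line gave 3 lower and 1 higher, beside 8.61% of all genes called. Of 30 G2/M genes bound by the MuvB complexes, 0 were called by edgeR and 0 by DESeq2 over both lines, 1 had an unadjusted p under 0.05, and the median was 0.00. The block fit of line 1 called 5 of them lower and 1 higher, together a smaller share than the 29.1% of all genes called in that fit.

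**Figure D4:**
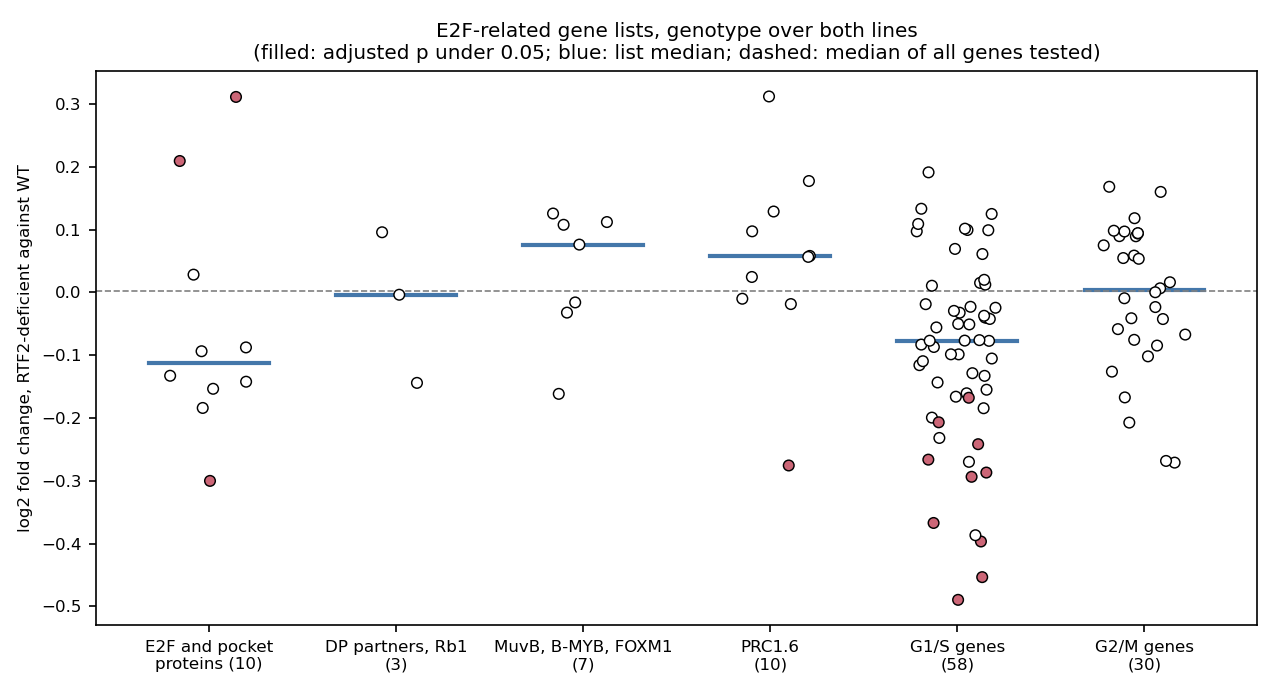
Log2 fold change between genotypes over both lines for the members and 5 related gene lists, with each gene a point (filled where the adjusted p is under 0.05), the list median in blue and the median of all genes dashed. The 10 filled G1/S genes all lie below 0, and the G2/M genes, with 0 filled, are centred on 0.

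The Polycomb complex that E2F6 joins and the germline genes it keeps silent in somatic cells were examined beside E2f6. Of 10 subunit genes 1 fell, Ring1, an E3 ligase for histone H2A (-0.28, SE 0.08, adjusted p = 0.0404), beside 8.18% of all genes lower. This call was lost in 10 of the 12 fits that left out a library and with the replicate block (11.5% of all genes called). The list gave 0 lower and 1 higher without the 3 interferon-high libraries (9.06% of all genes called), and 0 lower and 3 higher in the block fit of line 1 (14.4% of all genes higher). Of 15 germline genes only 6 had enough counts to be tested, and 1 fell, beside 8.18% of all genes lower. This was Meioc, a meiotic factor, which was below 0.574 CPM in every library (-1.24, SE 0.35, adjusted p = 0.0362, lost in 8 of the 12 fits). Of the 6 genes, 5 lay below 0, with a median log2 fold change of -0.80. An unadjusted p under 0.05 was reached by 4 of the 6, beside 28.5% of all genes. The germline count was 0 with the replicate block and without the 3 interferon-high libraries, and 2 lower with DESeq2 and in the block fit of line 1. The other germline genes were left out by the filter on low counts, so a count over those tested is no count over the list. Of the 12 interferon-stimulated genes 0 were called by edgeR, 0 by DESeq2 and 0 had an unadjusted p under 0.05, with all 12 values below 0 and a median of -1.70 on the log2 scale. In line 1 alone with the replicate block 9 were called lower, beside 14.7% of all genes.

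Levels were compared between members only per length, as CPM per kb of the exonic bases of the gene in GENCODE M21. E2f4 was highest at 20.3 ± 2.69 (SD over 12 libraries), above E2f1 in 11 of them, followed by E2f1 at 15.3 ± 1.84 and Rbl1 at 12.3 ± 1.41. E2f5 (8.96 ± 1.30), E2f3 (8.14 ± 0.778), E2f7 (7.96 ± 1.2) and E2f6 (7.82 ± 0.971) came next and did not differ beyond their spread, each being higher than the next in 6 to 8 of the 12 libraries. The order of E2f7 and E2f6 followed genotype, with E2f7 the higher in 1 of 6 WT and in 5 of 6 RTF2-deficient libraries. E2f8 (6.06 ± 0.901) was below E2f6 in all 12 libraries, and was above Rbl2 (5.21 ± 0.583) in 8. E2f2, at 0.438 ± 0.0924, was below every other member in all libraries. This order depends on the length used: per kb of the median coding transcript E2f7 ranked 2 at 22.3 rather than 6, and E2f6 ranked 3 at 18.3 rather than 7, whereas E2f4 ranked 1 and Rbl2 and E2f2 came last on both.

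Replicate spread set what could be seen for each gene. Within groups of 3 the coefficient of variation of CPM had its lowest median at E2f1 (6.30%) and E2f3 (6.31%) and its highest at E2f2 (18.0%) and E2f8 (16.4%), and it lay between 8.70% and 11.8% for the other members. In both groups of line 1, replicate 1 was the lowest library for E2f3, E2f4, E2f5, E2f6 and E2f8.

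The genes most like each member in pattern were found by Pearson's r of log2 CPM over the 12 libraries, a description in which the libraries share genotype, line and replicate number. E2f1 was closest to Tcf25 (0.97) and Pdhb (0.97), E2f3 to Rrn3 (0.98) and Wbp11 (0.97), and E2f7 to Cnot6 (0.93) and Uggt2 (0.92). E2f4 was closest to Srek1 (0.97) and Ddx27 (0.97), E2f5 to Impdh1 (0.96) and Eif2s2 (0.93), and E2f6 to Noa1 (0.92) and Rnpc3 (0.92). E2f8 was closest to Snhg7 (0.94) and Wdr77 (0.94), Rbl1 to Rbm5 (0.95) and Tti2 (0.95), and Rbl2 to Hpse (0.96) and Sil1 (0.95). The best matches of E2f2, Dph6 (0.84) and Gtf2h4 (0.82), were weaker.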

How the data were processed

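RNA of WT and RTF2-deficient MEFs was sequenced as single reads, and the authors deposited 1 table of raw counts per gene for the 12 libraries, without normalization. Salmon with tximport on mm10 gene models is given in the methods for making counts, whereas HTSeq and mm10 stand in the processing notes of the submitters. For strand use and poly(A) selection, the sources used here gave nothing. Columns were matched to samples by title. Of 24100 Entrez identifiers, 24045 were found in RefSeq for GRCm38, and exons came from GENCODE M21.

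After filterByExpr on the 4 groups, 14263 genes were scaled by TMM and fitted in edgeR 4.0.16 (R 4.3.3, quasi-likelihood test) with terms for line and genotype. A model of the 4 groups gave contrasts within and between lines. A gene was called at a Benjamini-Hochberg adjusted p under 0.05. The SE is the size of the coefficient over the square root of F, and log2 CPM used a prior count of 2. On simulated counts for the genotype comparison over both lines (14123 genes), 50.0% of changes of 0.5, 72.9% of changes of 1 and 95.8% of changes of 1.5 on the log2 scale were recovered. These covered 70, 59 and 71 genes, and 9 of 155 calls were false. The simulated libraries were independent and had no line effect, so these rates do not carry over to the data. Same-numbered libraries deviated together in line 1 (correlation of deviations 0.43 to 0.62) and between the WT lines (0.30 to 0.43) but not in line 2 (-0.59 to 0.17) or between the RTF2-deficient lines (-0.38 to 0.09).

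Named were all members, Rtf2, Tfdp1, Tfdp2, Rb1, Mybl2, Foxm1, Xist, Ddx3y, up to 4 genes per other list with the largest change among those called and of one sign in both lines, and the 2 genes most correlated with each member. Further called G1/S genes were named after their values were seen, and 1 is not reported here. Members and lists were chosen with earlier results of these data known. Alternatives were RLE and upper-quartile scaling, no filter, 1 CPM in 6 libraries, DESeq2 1.42.0, a replicate block, no line term, summed triplicates, either line fitted alone, and omission of each library in turn. Exclusion of the 3 libraries high in interferon-stimulated genes, and the blocks within line 1 and within WT libraries, were chosen after seeing the data.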

Additional observations from a re-analysis of the deposited data

How the results depend on the processing

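The count of members called over both lines was 3, and it was 0 with the triplicates summed, where a line becomes the unit, 0 of all 14263 genes passed, and E2f1, E2f3 and E2f7 had adjusted p of 0.159, 0.219 and 0.151. It was 0 with a log2 fold change beyond 1 required and between 1 and 3 with a library left out. In line 1 the count of 0 became 1 with DESeq2 and 4 in line 1 alone with the replicate block, while over all 12 libraries the replicate block gave E2f1 -0.30, E2f3 0.21 and E2f7 0.32, all called. In line 2 the count of 1 became 2 with DESeq2 (18.2% of all genes called). It was 0 without the filter (7.88%), with the replicate block (11.4%) and in line 2 alone (6.93%). Without the 3 interferon-high libraries line 2 keeps 1 WT library, so no count is given. With a library left out it was between 0 and 1. The member called was E2f1, lower, without WT line 1 replicate 2 (10.4% of all genes called). It was E2f3, higher, without RTF2-deficient line 2 replicate 3 (16.4%). Between the WT lines DESeq2 called 1. The replicate block changed no other count of members. In line 2 libraries deviated together across different numbers (WT 1 with RTF2-deficient 3 at 0.65, WT 2 with 1 at 0.61 and WT 3 with 2 at 0.37), a hint from the data and not the design, and no such pairing was fitted. The G1/S count of 10 was 0 with the triplicates summed. With 3 technical libraries per group and 2 lines, small changes such as those of E2f3 are near the limit of detection.

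Signs turned for values that did not pass the test. Over both lines, E2f5 was -0.0066 without the interferon-high libraries and -0.0026 to 0.10 with a library left out, and Tfdp2 was 0.0033 with RLE, 0.0060 without the filter, 0.0033 with DESeq2 and -0.056 to 0.066 with a library left out. In line 1, the fits without a library ran from -0.20 to 0.16 for E2f2, -0.027 to 0.19 for E2f4, -0.13 to 0.090 for E2f5 and -0.18 to 0.11 for E2f8. In line 2 they ran from -0.45 to 0.014 for E2f2.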
